A study of Mus musculus with 4 samples.

Results

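The genes of the islet hormones were Ins1 and Ins2, Iapp, Gcg, Sst, Ppy, Pyy and Ghrl, and they were taken by these names from the probe annotation of the authors' deposited table. All 8 were found among 26265 genes on the array, each with 1 probe, and all 8 passed the filter on dim signals. Their expression was measured in isolated islets of 8-week-old C57BL/6 mice, kept for 24 h in RPMI1640 medium with 5.6 mM glucose and either 30 µM GKA, a glucokinase activator, or its vehicle, DMSO. There were 2 samples with GKA and 2 with vehicle, each on 1 array of a 1-colour Agilent design. Whether the 2 samples of a group were separate mice or cultures is not in the labels. The p-values therefore cover no more than the scatter of these samples, and that may be technical.

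The islet is a cluster of endocrine cells, and each cell type is known by the hormone it makes. Beta cells make insulin, from the genes Ins1 and Ins2 in the mouse, and co-secrete islet amyloid polypeptide, the product of Iapp. Alpha cells make glucagon (Gcg), delta cells somatostatin (Sst), PP cells pancreatic polypeptide (Ppy), and a rare cell type ghrelin (Ghrl), while peptide YY (Pyy) is made by several islet cell types. Glucokinase is the glucose sensor of the beta cell, and somatostatin acts within the islet to restrain the release of insulin and glucagon.

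The arrays shared 1 slide and 1 scan. Between 59.7% and 63.5% of the probes stood well above background on each array, and the 75th percentile of intensity was 557 and 598 on the GKA arrays against 751 and 755 on the vehicle arrays. On the slide, GKA islets took places 3 and 4 and vehicle islets places 1 and 2, so place and treatment cannot be told apart. To compare groups, each log2 intensity was taken relative to the 75th percentile of its array, and such a value is called scaled below. The brightness of a probe depends on its sequence, so no hormone's level is set against another's.

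Somatostatin was the hormone gene that passed the test. Sst rose 1.78-fold with GKA, with a 95% interval of 1.41 to 2.25, while the other 7 hormone genes did not pass in either direction. Intensities of the Sst probe were 162154 and 145968 on the GKA arrays, against 111772 and 113722 on the vehicle arrays. Both GKA arrays were the higher ones before any scaling, and the groups did not overlap. After scaling, Sst stood at 8.06 ± 0.18 on the log2 scale in GKA islets and at 7.23 ± 0.01 in vehicle islets (SD, n = 2 each). The difference was 0.83 ± 0.13 (SE; adjusted p = 0.0198 in limma, Benjamini-Hochberg over 17178 genes). Sst was thus 1 of 8 hormone genes called higher and 0 were called lower. Of all genes tested, 9.11% were called higher and 8.01% lower, or 17.1% in either direction. At an unadjusted p under 0.05 in limma Ins1 and Gcg were higher too, 3 in all. The shares of all genes are for adjusted p and do not apply to that count, and the share at the unadjusted threshold was not counted. The count of 3 also depended on the processing. It was 1 without scaling or with scaling to each array's median, and 4 when the probes of each gene were averaged. In a bulk sample of islets, more cells of a type and more RNA per cell cannot be told apart.

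**Figure D1:**
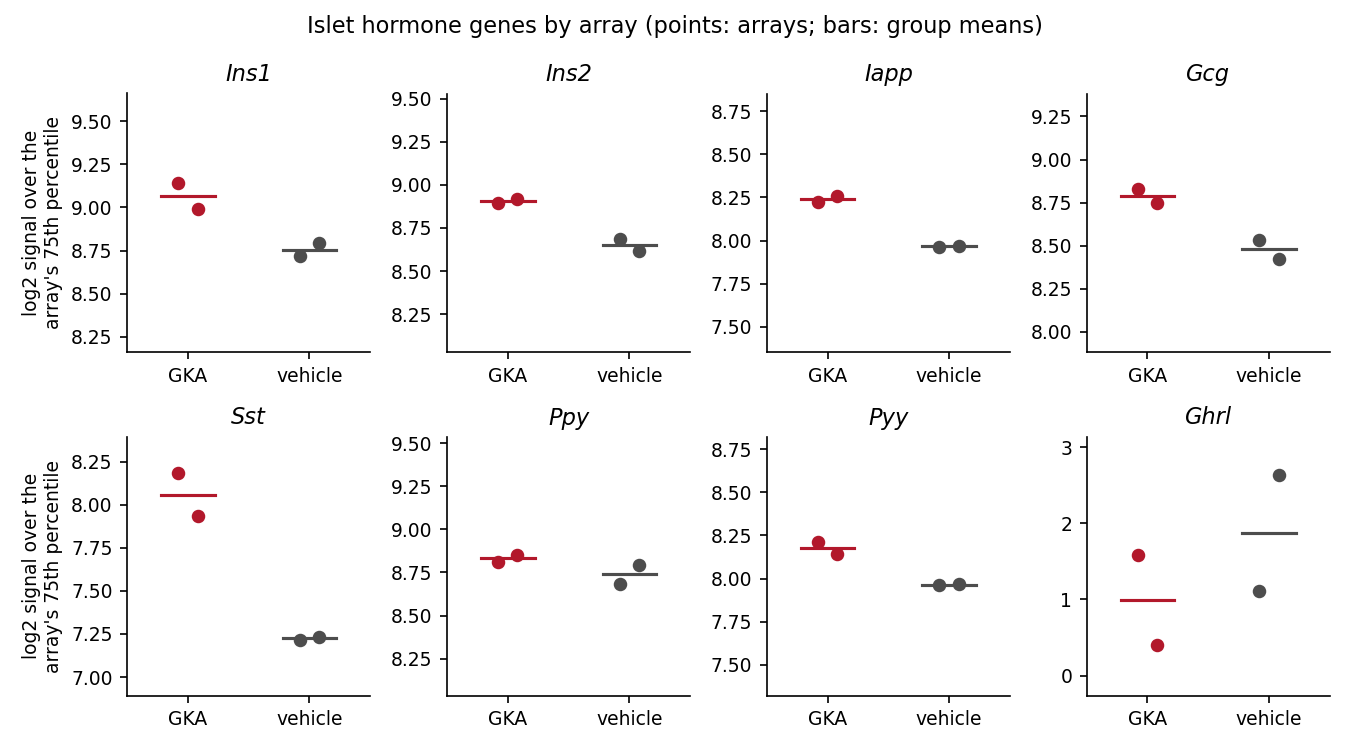
Scaled log2 signal of the 8 hormone genes, with GKA left and vehicle right in each panel, a point for each array and a bar for each group mean. The panels share 1 height of axis except that of Ghrl, which is taller; the Sst means are 8.06 and 7.23, and only the Ghrl points of the groups overlap.

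The call on Sst was lost when 1 GKA array, whichever it was, was left out, while the change stayed near its value of 0.83. Such a fit takes the spread from the vehicle arrays alone and has fewer residual degrees of freedom. Without GKA replicate 1 the change was 0.71 (adjusted p = 0.0858 in limma), and without GKA replicate 2 it was 0.96 (adjusted p = 0.0582). Without vehicle replicate 1 or 2 it was 0.82 and 0.84 and passed (adjusted p = 0.0448 and 0.0313). Over all 16 alternative settings the change lay between 0.29 and 0.96, and Sst passed in 12 of them.

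The Sst probe is printed on the array at 10 positions, which gives a check on single spots. At 10 of 10 positions both GKA arrays were brighter than both vehicle arrays, with and without scaling. Over the 9 positions that carried no outlier mark on any array, the scaled change ran from 0.77 to 0.88, with a median of 0.84. Spots of 1 array share its RNA and are not replicates. Unmarked Sst spots ranged from 154691 to 173948 and from 136453 to 159646 on GKA arrays 1 and 2, against 105704 to 118660 and 108574 to 123641 on vehicle arrays 1 and 2. The lowest GKA spot thus stood above the highest vehicle spot. The Sst probe lies on chromosome 16 at 23889776 to 23889835, on the minus strand, in build mm9.

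**Figure D2:**
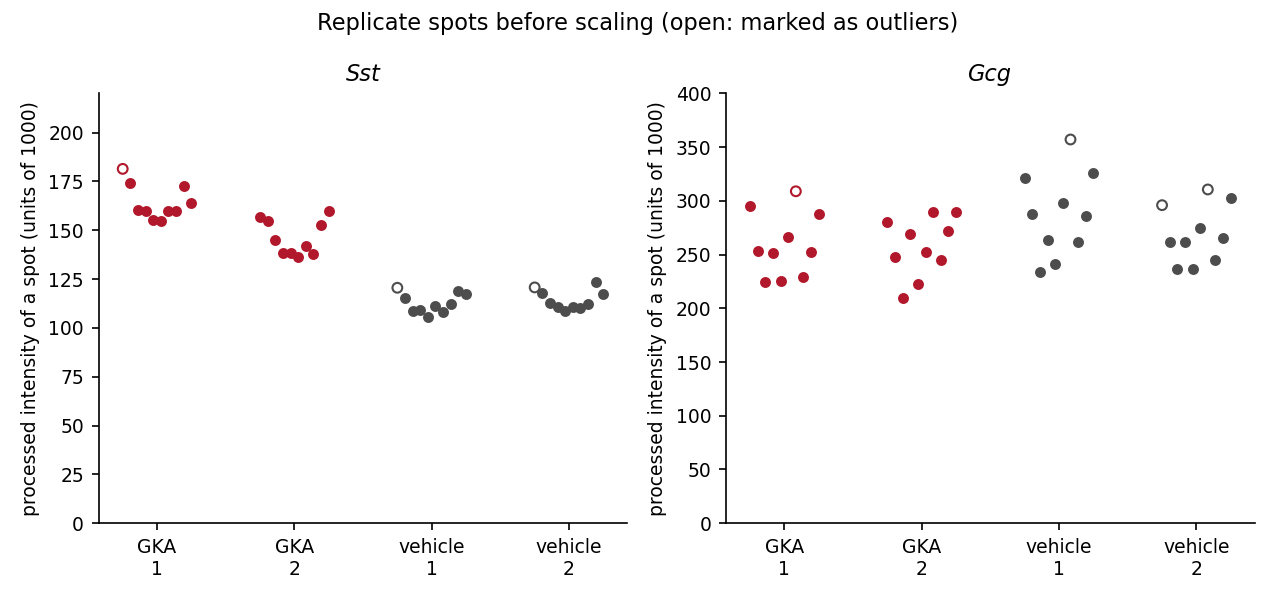
Processed intensity, in units of 1000, of every spot of Sst (left) and Gcg (right) on each array, before scaling, with GKA arrays left of vehicle arrays and open symbols for spots marked as outliers. The Sst spots of the groups do not overlap, and the Gcg spots do.

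The promoter of Sst is known for a cyclic AMP response element, a palindrome bound by CREB. Its letters TGACGTCA were looked for in the 250 bases before each start in the RefSeq promoter table of build GRCm38.p6, beside the E-box CATCTG (either strand), of a kind that activates insulin genes, and TAAT, the core of homeodomain sites (either strand). A match is a description of letters and not a site. The table held 11 promoters of 7 of the 8 hormone genes, all but Ins2. Within these 250 bases TGACGTCA was found in Sst alone of these 7, beginning 48 bases before the start, and in 1.55% of all 32851 promoters. Bases further upstream were not searched, so the letters may occur there in the other genes. CATCTG was found in Ins1, 84 bases before the start, in Iapp at 111 and in Gcg at 139 and 83, and in 14.4% of all promoters. TAAT was present in Sst, Ins1, Iapp and Gcg, and in 54.9% of all promoters. The stretches below, 5′ to 3′ on each gene's strand, set the gene that passed beside a beta-cell and an alpha-cell hormone gene that did not. They are Sst at chr16:23890845-23891094 (minus), Ins1 at chr19:52264047-52264296 (plus) and Gcg at chr2:62483654-62483903 (minus). Capitals mark TGACGTCA in Sst and the E-box in Ins1 and Gcg, where Gcg carries it on the other strand.
Sst: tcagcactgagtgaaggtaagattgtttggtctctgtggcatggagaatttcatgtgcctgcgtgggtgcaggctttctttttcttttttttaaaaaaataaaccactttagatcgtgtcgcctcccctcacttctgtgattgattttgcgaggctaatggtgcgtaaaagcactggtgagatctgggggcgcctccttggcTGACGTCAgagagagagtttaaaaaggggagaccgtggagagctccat
Ins1: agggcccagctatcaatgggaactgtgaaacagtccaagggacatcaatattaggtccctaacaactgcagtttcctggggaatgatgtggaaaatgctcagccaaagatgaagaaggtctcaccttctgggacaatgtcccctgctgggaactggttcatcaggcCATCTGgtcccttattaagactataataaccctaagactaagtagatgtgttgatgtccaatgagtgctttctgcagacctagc
Gcg: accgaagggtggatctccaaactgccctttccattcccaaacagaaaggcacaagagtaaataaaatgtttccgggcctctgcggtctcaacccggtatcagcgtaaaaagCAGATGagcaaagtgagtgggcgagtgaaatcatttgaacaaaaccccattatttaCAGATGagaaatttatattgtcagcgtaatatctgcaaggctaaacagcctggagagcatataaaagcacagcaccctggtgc
Among the genes tested that had a promoter in the table, 348 carried TGACGTCA, and 10.1% of them were higher and 5.17% lower with GKA. Of the 11461 without it, 9.11% were higher and 7.83% lower. The shares of higher genes lay close to each other, and the share of lower genes was smaller with TGACGTCA. The median changes were 0.0278 with it and -0.00766 without it. These differences were not tested.

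The insulin genes stood well above background on every array and did not pass. Ins1 had intensities of 314497 and 303951 on the GKA arrays, against 316638 and 334839 on the vehicle arrays. Ins2 had 264639 and 289611 on the GKA arrays, against 309724 and 296945 on the vehicle arrays. Before scaling the means of the groups thus differed by -5.07% and -8.64%, and after scaling all GKA values were the higher ones. The scaled change was 0.31 ± 0.12 for Ins1 (SE; adjusted p = 0.134 in limma), a fold of 1.24 with a 95% interval of 1.00 to 1.53. For Ins2 it was 0.25 ± 0.11 (adjusted p = 0.171 in limma), a fold of 1.19 with an interval of 0.980 to 1.45. The upper bounds of both intervals lay above the lower bound for Sst, 1.41. The raw signal of Ins1 reached between 46.6% and 49.9% of the scanner's saturation value, and the software marked no spot of any gene as saturated. The probe of Ins1 lies on chromosome 19 at 52339385 to 52339444 and that of Ins2 on chromosome 7 at 149864566 to 149864625 (mm9).

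Iapp, whose product is stored in the insulin granule and released with insulin, had 166437 and 182798 on the GKA arrays, against 187049 and 189604 on the vehicle arrays. Its scaled change of 0.27 ± 0.11 (SE; adjusted p = 0.142 in limma) did not pass, and its fold of 1.21 had an interval of 0.997 to 1.47. All 3 beta-cell hormone genes lay between 0.25 and 0.31 after scaling. The difference between Ins1 and Ins2 within an array was 0.25 and 0.07 on the GKA arrays, against 0.03 and 0.17 on the vehicle arrays, so the ranges of the groups overlapped.

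Gcg, the alpha-cell gene for proglucagon, also did not pass. It had 252757 and 256556 on the GKA arrays, against 278229 and 259810 on the vehicle arrays, as means over unmarked spots. Its scaled change was 0.31 ± 0.12 (SE; adjusted p = 0.129 in limma), a fold of 1.24 with an interval of 1.01 to 1.52. Gcg, too, has 10 spots per array. Both GKA arrays stood above both vehicle arrays at 10 of 10 positions after scaling and at 0 of 10 before it. The direction of Gcg was therefore set by the scaling, whereas that of Sst was the same with and without it.

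Ppy and Pyy, neighbours on chromosome 11 that encode related peptides of one family, were the hormone genes with the smallest scaled changes. Ppy had 250388 and 276170 on the GKA arrays, against 308726 and 335447 on the vehicle arrays. Its scaled change was 0.09 ± 0.12 (SE; adjusted p = 0.599 in limma), with a fold interval of 0.872 to 1.30. Pyy had 165200 and 168702 on the GKA arrays, against 187226 and 189201 on the vehicle arrays. Its scaled change was 0.21 ± 0.11 (adjusted p = 0.234 in limma), with a fold interval of 0.952 to 1.41. Both genes were lower on both GKA arrays before scaling and higher on both after it. The Ppy probe spans 101961581 to 101961877 and the Pyy probe 101968311 to 101968370 (mm9).

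The signal of Ghrl varied between arrays of a group. It had 1673 and 790 on the GKA arrays, against 1627 and 4706 on the vehicle arrays. GKA array 1 and vehicle array 1 were nearly equal before scaling, the other two stood at the extremes, and the groups overlapped. Its scaled change of -0.88 ± 0.60 (SE; adjusted p = 0.344 in limma) had a fold interval from 0.189 to 1.55, the widest of the 8 genes on the log2 scale. With spike-in scaling Ghrl was at -1.43 and passed, in a fit that gave every gene 1 common variance.

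Taken over the 8 genes, the median scaled change was 0.26, against -0.01 over all genes tested, and 7 of 8 were higher without overlap between the groups. Over all genes 32.4% were higher and 33.5% lower without overlap, or 65.9% in either direction. Of the hormone genes, 6 were among the 50 brightest genes tested and 7 among the 100 brightest. The 50 brightest genes had a median change of 0.21 and the 100 brightest 0.08, while the next 900 had -0.08. With the hormone genes left out, the other 44 of the 50 brightest had a median of 0.19 and the other 93 of the 100 brightest one of 0.03. The part of brightness in the hormone changes was not tested.

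How the arrays are scaled decides the sign of most hormone changes but not that of Sst, which stayed above 0, or of Ghrl, which stayed below 0. Without scaling, the median of all genes was -0.40, and Sst was still higher by 0.45 ± 0.12 (SE; adjusted p = 0.0304 in limma). The other 7 were then below 0, from Ins1 at -0.075 and Gcg at -0.078 to Ppy at -0.29 and Ghrl at -1.27. Of these, Ghrl was below 0 after scaling too, at -0.88. With scaling to 7 spike-in probes, RNAs meant to be added to every sample in equal amount, the median of all genes was -0.56 and Sst was at 0.29 ± 0.27 (SE; adjusted p = 0.357 in limma). The spike-in means were 11.71 and 11.84 on the GKA arrays, against 11.78 and 11.45 on the vehicle arrays, so the vehicle arrays differed from each other by more than the groups did. In the authors' deposited table, which is not scaled, the ratio of GKA over control was 1.37 for Sst, 0.949 for Ins1, 0.914 for Ins2, 0.927 for Iapp and 0.947 for Gcg. In the authors' deposited table it was 0.817 for Ppy, 0.887 for Pyy and 0.389 for Ghrl, where the median over all probes was 0.841.

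**Figure D3:**
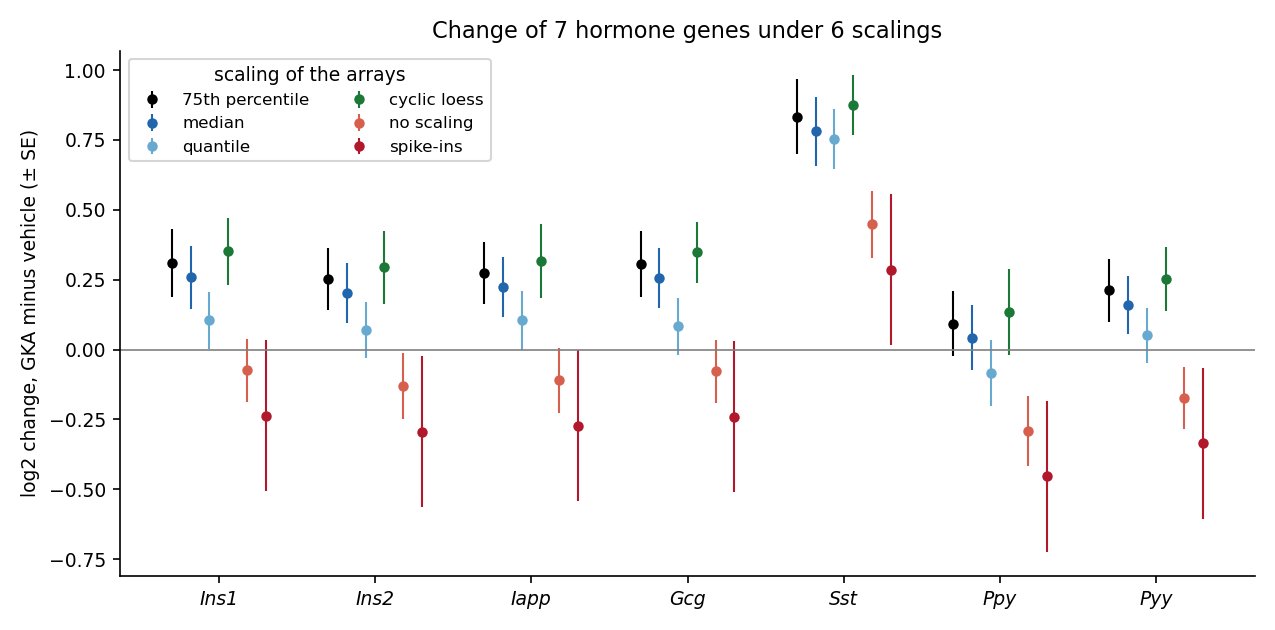
Log2 change, GKA minus vehicle, of 7 hormone genes (points, with SE as bars) under 6 ways to scale the arrays. Sst is above 0 under all 6, and Ins1, Ins2, Iapp, Gcg and Pyy are above 0 under 4 of them and below 0 without scaling and with spike-ins; Ghrl is left out for its wider range.

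A comparison within each array avoids the scaling. When the mean log2 value of Ins1 and Ins2 on an array was subtracted from every gene on it, Sst stood at -0.83 and -1.02 on the GKA arrays, against -1.49 and -1.47 on the vehicle arrays. Relative to the insulin genes, Sst rose by 0.55 ± 0.12 (SE; adjusted p = 0.0253 in limma), or 1.47-fold. In this comparison 5.24% of all genes were called higher and 31.5% lower, or 36.7% in either direction. The call was lost when any 1 array was left out: the change was 0.46 without GKA replicate 1, 0.65 without GKA replicate 2, 0.54 without vehicle replicate 1 and 0.56 without vehicle replicate 2, with adjusted p between 0.0683 and 0.115 in limma.

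The other hormone genes did not pass relative to insulin. The change was -0.01 ± 0.11 for Iapp (SE; adjusted p = 0.960 in limma), with a 95% interval of -0.29 to 0.27. It was 0.02 ± 0.11 for Gcg (adjusted p = 0.872), with an interval of -0.26 to 0.31, and -0.07 ± 0.11 for Pyy (adjusted p = 0.619), with an interval of -0.34 to 0.20. Ppy was at -0.19 ± 0.12 (adjusted p = 0.241) and Ghrl at -1.16 ± 0.60 (adjusted p = 0.174). Set against Gcg on the same array, Sst was at -0.64 and -0.81 on the GKA arrays, against -1.32 and -1.19 on the vehicle arrays, without overlap. Set against Ppy it was at -0.63 and -0.92 on the GKA arrays, against -1.47 and -1.56 on the vehicle arrays.

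**Figure D4:**
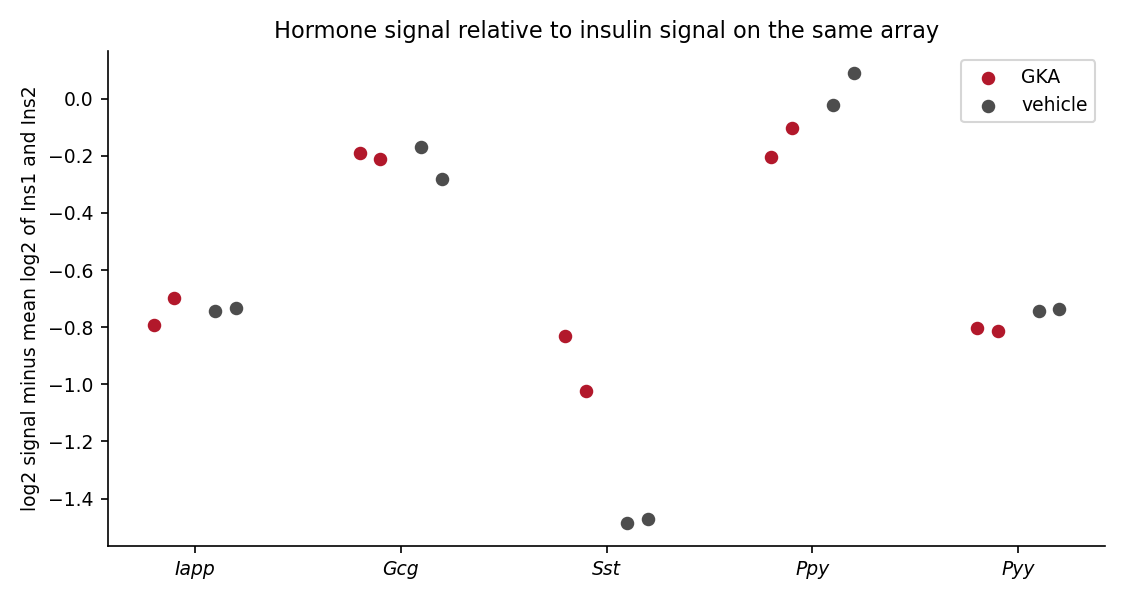
Log2 signal of 5 hormone genes minus the mean log2 signal of Ins1 and Ins2 on the same array, with GKA points left of vehicle points. The height of a gene on the axis depends on its probe and only the difference between colours has a meaning; Sst is at -0.83 and -1.02 with GKA, against -1.49 and -1.47 with vehicle.

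The genes nearest to each hormone gene in pattern over the 4 arrays, out of 12616 candidates, were found by the root mean square difference of centred scaled log2 values. Sst was nearest to Csdc2 (0.0186) and Artn (0.0216), whose changes were 0.86 and 0.84. Ins1 was nearest to Stx18 and Mepe, Ins2 to Mrpl10 and Snrnp70, Iapp to Brix1 and Per3, and Gcg to Tmf1 and Zcchc17, all at differences under 0.01. Ppy was nearest to Gabpb1 and Zfp40 and Pyy to Psmd8 and Aasdhppt, likewise under 0.01. For Ghrl the nearest genes, Ifi47 and Mpa2l (now Gbp6), lay at 0.308 and 0.315, so no gene followed its pattern closely. With 4 arrays, near patterns are found for many genes.

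Genes that regulate transcription of the hormone genes were mostly not called. Of 24 tested, 5 were higher and 1 lower, against 9.11% higher and 8.01% lower over all genes, with a median of 0.29. The counts were 3 higher and 4 lower without scaling, and 0 higher and 4 lower with spike-ins. Over all 17178 genes, 750 were higher and 7654 lower without scaling, and 434 higher and 7624 lower with spike-ins. Among those that rose were Etv1, an ETS factor found in delta cells, by 1.15 ± 0.11 (SE; adjusted p = 0.00722 in limma), and Pdx1, a homeodomain activator of Ins1, Ins2, Iapp and Sst, by 1.11 ± 0.16 (adjusted p = 0.0166). Mafa, the beta-cell activator of insulin genes, rose by 1.06 ± 0.14 (adjusted p = 0.0136) and Isl1, a LIM-homeodomain factor of all islet endocrine cells, by 0.71 ± 0.11 (adjusted p = 0.0190). Pax6, named after its values were seen, was the fifth, at 0.53. Rfx6, a factor needed for islet cell development, fell by 0.72 on the log2 scale (adjusted p = 0.0335 in limma). Insm1, a zinc finger factor of endocrine cells and the brightest member that did not pass, was at -0.40 (adjusted p = 0.0633 in limma). The count of higher regulators became 1 without GKA replicate 1 and 1 without GKA replicate 2. Etv1 passed whichever array was left out, Pdx1, Mafa and Isl1 passed when 1 vehicle replicate was left out but not when 1 GKA replicate was, and Rfx6 passed only without vehicle replicate 2.

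Enzymes that cut and finish the prohormones were measured for 11 genes, of which 3 were higher and 0 lower, where 9.11% of all genes were higher and 8.01% lower, with a median of 0.18. Without scaling 2 were higher and 2 lower, and with spike-ins 2 were higher and 3 lower. Of all 17178 genes, 750 were higher and 7654 lower without scaling, and 434 and 7624 with spike-ins. Pam, which amidates the ends of peptides such as amylin and pancreatic polypeptide, rose by 1.97 ± 0.22 (SE; adjusted p = 0.00971 in limma). Pcsk1, the convertase that starts the cutting of proinsulin, rose by 1.77 ± 0.17 (adjusted p = 0.00667), and Pcsk2, which cuts proglucagon and proinsulin, by 0.62 ± 0.14 (adjusted p = 0.0417). Pcsk2 did not pass without GKA replicate 1, GKA replicate 2 or vehicle replicate 2, nor without scaling, with spike-ins, with no filter on dim probes, as the mean of its probes, with the replicate block (adjusted p = 0.0560 in limma) or with quantile normalization, whereas Pam and Pcsk1 passed in all 4 fits that left out an array. The carboxypeptidase Cpe (0.27) and Scg5 (0.36), a chaperone of Pcsk2, did not pass.

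Of 13 receptors of these hormones tested, 4 were higher and 2 lower, beside 9.11% and 8.01% of all genes, with a median of 0.25. The somatostatin receptors Sstr2, Sstr1 and Sstr4 stood at 0.86 ± 0.21, 0.65 ± 0.14 and 0.62 ± 0.14 (SE; adjusted p = 0.0475, 0.0373 and 0.0438 in limma), and Sstr3 at -0.24 (adjusted p = 0.266). Ramp2, a partner of calcitonin-type receptors, was at 0.54 (adjusted p = 0.0420), and Ramp3 at 0.56 (adjusted p = 0.108). The glucagon receptor Gcgr fell by 1.35 on the log2 scale (adjusted p = 0.0144) and the GLP-1 receptor Glp1r by 0.93 (adjusted p = 0.0135). The count of higher receptors became 0 without GKA replicate 1 and without GKA replicate 2, 1 without vehicle replicate 1, 2 without vehicle replicate 2, and 0 with the replicate block. Without scaling and with spike-ins 0 were higher and 4 lower, where 750 and 434 of all 17178 genes were higher and 7654 and 7624 lower. Sstr2 also did not pass without vehicle replicate 1, with no filter on dim probes, or with median scaling, limma-trend, quantile normalization or cyclic loess. With normexp its change was 0.39 and passed (adjusted p = 0.0222 in limma), and with normexp and quantile normalization it was 0.13 and did not (adjusted p = 0.344 in limma). Without GKA replicate 1 neither Gcgr nor Glp1r passed, and without GKA replicate 2 Glp1r did not. With spike-in scaling Ramp2 turned to -0.0033.

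Other peptide and granin genes were often higher with GKA. Of 22 tested, 14 were higher and 0 lower, with a median of 1.18, against 9.11% higher over all genes. Tac1, which encodes substance P, rose by 2.98 ± 0.18 (SE; adjusted p = 0.00341 in limma), and Pdyn, the prodynorphin gene, by 2.74 ± 0.14 (adjusted p = 0.00297). Pthlh, for parathyroid hormone-related protein, rose by 2.47 ± 0.32 (adjusted p = 0.0130), though it was well above background on only 1 vehicle array and its change was 0.97 with normexp and 0.74 with normexp and quantile normalization, and Adm, for adrenomedullin, by 2.43 ± 0.39 (adjusted p = 0.0198). Chga (0.26) and Scg2 (0.21), granin genes of the dense-core granule, did not pass. The count became 6 without GKA replicate 1 and 7 without GKA replicate 2, and 12 without scaling. Tac1 and Pdyn passed whichever array was left out, Pthlh did not pass without GKA replicate 1, and Adm did not when 1 GKA replicate, whichever it was, was left out. The median of these genes stayed above 0 without scaling (0.80) and with spike-ins (0.64), whereas those of the regulators, the processing genes and the receptors turned to -0.09, -0.20 and -0.14 without scaling. The median of all genes was -0.40 without scaling and -0.56 with spike-ins. Without scaling, 750 of all 17178 genes were called higher.

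**Figure D5:**
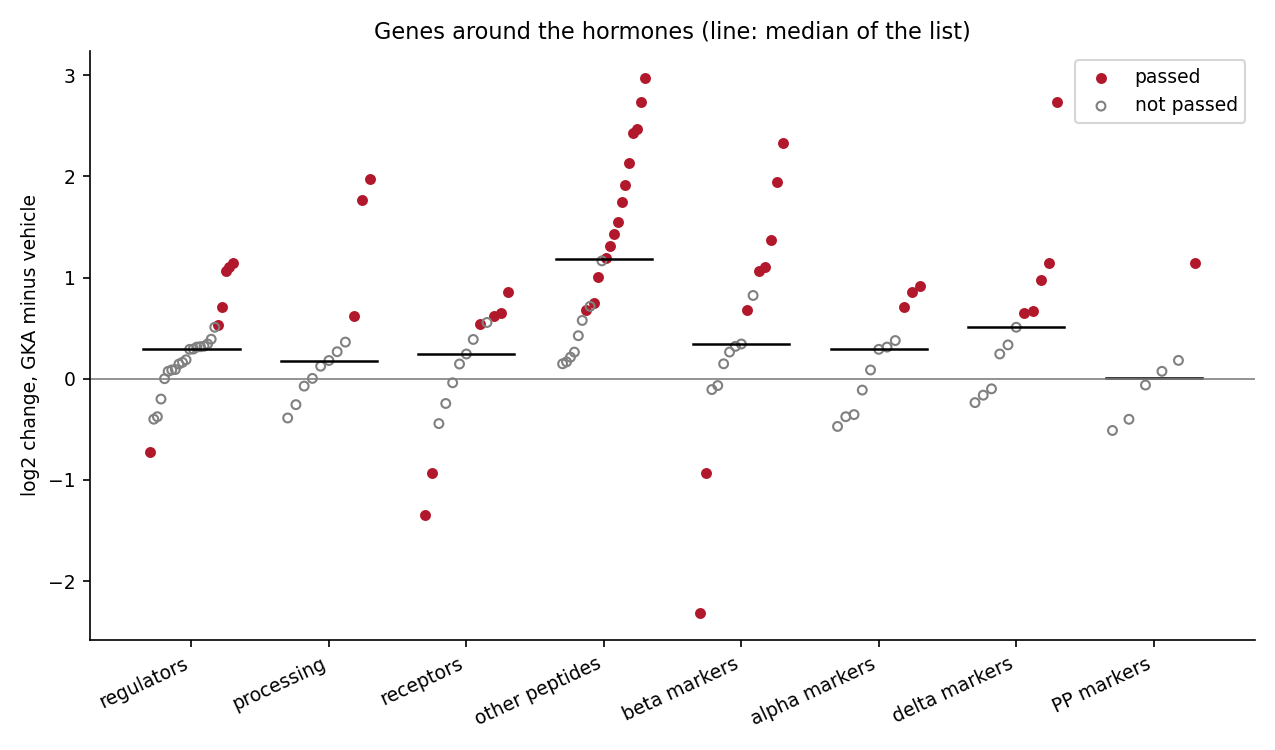
Log2 change, GKA minus vehicle, of each tested gene of 8 lists, filled where it passed and open where it did not, with a line at the median of each list. The other peptide genes have a median of 1.18 and the delta-cell markers one of 0.51, against 0.01 for the PP-cell markers.

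The cell types that make the hormones were followed by marker lists without the hormones. These lists share genes with those above, so their counts are not independent. Pdyn, Etv1 and Sstr1 were also counted among the other peptides, the regulators and the receptors. Likewise Pdx1 and Mafa are in the beta-cell and regulator lists, and Glp1r and Sstr2 in marker and receptor lists. Of 11 delta-cell markers tested, 5 were higher and 0 lower (Pdyn, Etv1, Cckbr, Ptprz1 and Sstr1), against 9.11% and 8.01% of all genes, with a median of 0.51. Their summed scaled level was 216 and 176 on the GKA arrays, against 83.8 and 71.1 on the vehicle arrays. Most of that gap was Pdyn, and without it the sum was 90.1 and 70.5 on the GKA arrays, against 67.2 and 53.1 on the vehicle arrays. The delta-cell factor Hhex was at 0.51 (adjusted p = 0.0636 in limma), Rbp4 at 0.34 (adjusted p = 0.320) and the ghrelin receptor Ghsr at 0.25 (adjusted p = 0.228), none of which passed. The remaining markers tested, Frzb, Casr and Lepr, were below 0, at -0.24, -0.16 and -0.099, and did not pass either. The count of higher delta-cell markers became 2 without GKA replicate 1, without GKA replicate 2 and without vehicle replicate 1, and 3 with the replicate block. Without scaling 2 were higher and 2 lower, with a median of 0.13, and with spike-ins 1 was higher and 3 were lower, with a median of -0.04. Over all 17178 genes, 750 were higher and 7654 lower without scaling, with a median of -0.40. With spike-ins 434 of all genes were higher and 7624 lower, with a median of -0.56. The part of these markers in the Sst change was not tested.

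Of 15 beta-cell markers 6 were higher and 2 lower, with a median of 0.34, where the shares of all genes were again 9.11% and 8.01%. Their sum was 231 and 235 on the GKA arrays, against 171 and 154 on the vehicle arrays. Such a sum weighs bright members most, and these did not move together. G6pc2 rose by 1.94 and Ero1lb (now Ero1b) by 1.37, while Papss2 (-0.11) and Slc30a8 (-0.067) did not pass. Of 11 alpha-cell markers 3 were higher and 0 lower, with a median of 0.29, and of 6 PP-cell markers 1 was higher and 0 lower, with a median of 0.01. At an unadjusted p under 0.05 in limma, 0 delta-cell, 0 alpha-cell, 1 PP-cell and 2 beta-cell markers were lower. So were 1 processing gene, 0 other peptide genes, 2 regulators and 3 receptors. Lower markers of other cells at this threshold were 8 for leukocytes, 3 for duct cells and 3 for fibroblasts and stellate cells. They were 2 for acinar cells, 1 for endothelial cells and 1 for neurons and Schwann cells. Higher at this threshold were 6 delta-cell, 3 alpha-cell, 1 PP-cell and 9 beta-cell markers. So were 4 processing genes, 15 other peptide genes, 10 regulators and 6 receptors. Higher markers of other cells were 2 for leukocytes, 1 for duct cells and 1 for fibroblasts and stellate cells. They were 2 for acinar cells, 4 for endothelial cells and 4 for neurons and Schwann cells. The share of all genes at this threshold was not counted, so none of these counts can be set against it. The medians of the beta-, alpha- and PP-cell markers turned to -0.04, -0.09 and -0.38 without scaling. Beta-cell markers then counted 5 higher and 3 lower, alpha-cell markers 1 and 3, and PP-cell markers 0 and 1. With spike-ins these counts were 3 and 4, 0 and 4, and 0 and 2. Over all 17178 genes they were 750 and 7654 without scaling, and 434 and 7624 with spike-ins. The beta count of higher markers became 3 when 1 GKA replicate, whichever it was, was left out, and the alpha count became 0.

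Of other cells in an islet preparation, 5 of 14 leukocyte markers were lower and 1 higher (median -0.45), against 8.01% lower and 9.11% higher over all genes, with sums of 13.3 and 11.97 on the GKA arrays, against 14.3 and 13.4 on the vehicle arrays. The count of lower leukocyte markers became 2 when 1 GKA replicate, whichever it was, was left out, 3 without vehicle replicate 1, and 9 without scaling or with spike-ins. For acinar markers 2 of 8 were higher and 1 lower, for duct cells 1 and 2 of 9, for endothelial cells 2 and 1 of 12, for fibroblasts and stellate cells 1 and 1 of 11 and for neurons and Schwann cells 2 and 1 of 9, beside the same shares of all genes. Without scaling these counts were 2 and 2 for acinar cells, 1 and 4 for duct cells, 0 and 5 for endothelial cells, 0 and 6 for fibroblasts and stellate cells, and 2 and 1 for neurons and Schwann cells. With spike-ins 8 of the fibroblast and stellate markers were lower. Of all 17178 genes, 750 were higher and 7654 lower without scaling, and 434 and 7624 with spike-ins. The endothelial and the neural counts of higher markers became 0 when 1 GKA replicate, whichever it was, was left out. The acinar sum was 12.01 and 11.3 on the GKA arrays, against 5.50 and 5.05 on the vehicle arrays.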

How the data were processed

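Isolated mouse islets treated with GKA or vehicle for 24 h were measured on 4 Agilent 1-colour arrays, 2 per group. The deposited intensity of each spot was background-subtracted and detrended by Agilent Feature Extraction, version 10.7.3.1 per the file headers, while the submitters' processing notes name version 9.1, and it was not scaled between arrays. The authors' deposited table holds 1 intensity per group and probe and the ratio of GKA over control, and its ratio was within 0.1% of the quotient of the 2 intensities for 100% of probes. Control spots and spots marked as outliers were left out here, repeat spots were averaged as log2 values, and each deposited intensity was turned into log2 minus the array's 75th percentile. A probe entered the test if both arrays of GKA or both of vehicle measured it well above background. Of several probes for a gene the brightest on average was taken, which gave 17178 genes. Groups were compared with limma version 3.58.1 in R version 4.3.3 (lmFit and eBayes, two-sided, Benjamini-Hochberg over all genes, threshold 0.05). The fit had 2 residual and 3.33 prior degrees of freedom, and an exact permutation of 2 against 2 arrays cannot go below p = 0.333, so none is given. Fold intervals are 95% intervals of the fit and cover the spread between arrays only. The number of arrays limits every value.

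The column of mean spot signal that a planned background correction called for is not among those used, so normexp was run on the median signal, with an offset of 50. The promoter table of RefSeq is of build GRCm38.p6, and probe positions are on mm9. The hormone genes, the gene lists and the rules were chosen with earlier results of these data known. By rule, the text names all 8 hormone genes, up to 4 passing members per direction and the 2 brightest others of each list that is not of markers, and the 2 nearest patterns per hormone gene. A gene taken by this rule is not reported here. The scripts were tested on simulated data. The correlation across genes of the difference between replicates 2 and 1 was 0.0751 between GKA and vehicle, so the replicate numbers were not taken to pair the samples.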

Additional observations from a re-analysis of the deposited data

How the results depend on the processing

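Over 16 alternatives Sst kept its direction and passed in 12, from 0.29 to 0.96 on the log2 scale. It did not pass with spike-in scaling (0.29), in a fit with infinite prior degrees of freedom, in which Ghrl passed at -1.43. Nor did it pass with no filter on dim probes (0.83, adjusted p = 0.0966 in limma, and 0.55 relative to insulin), where 0 hormone genes and 0 hormone probes passed and 1 hormone gene had an unadjusted p under 0.05. Leaving out each array in turn gave 0.71 to 0.96 for Sst, and 0.46 to 0.65 relative to insulin, with 0 to 1 hormone genes and 0 to 1 hormone probes passing. Relative to insulin, the same fits gave -0.055 to 0.040 for Iapp and -0.030 to 0.079 for Gcg. Without scaling the changes turned to -0.075 for Ins1, -0.13 for Ins2, -0.11 for Iapp, -0.078 for Gcg, -0.29 for Ppy and -0.17 for Pyy, and to -0.12 for Chga, -0.17 for Scg2, -0.12 for Cpe and -0.021 for Scg5. With spike-ins they turned to -0.24 for Ins1, -0.29 for Ins2, -0.27 for Iapp, -0.24 for Gcg, -0.45 for Ppy and -0.34 for Pyy, and to -0.28 for Chga, -0.33 for Scg2, -0.28 for Cpe, -0.18 for Scg5 and -0.0033 for Ramp2. Ppy turned to -0.041 with normexp and quantile normalization, and to -0.083 with quantile normalization alone, which like cyclic loess was added after seeing the data. With normexp and quantile normalization Ins1 was at 0, a value set by the method. Its median signal was the brightest on every array, and quantile normalization gives the brightest rank the same value on all arrays. Relative to insulin, Iapp turned to 0.092 and Pyy to 0.12 with normexp and quantile normalization, and Gcg to -0.0011 with marked spots kept.

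Over all genes 2941 changed, 1565 higher and 1376 lower. There were 8404 without scaling (750 higher, 7654 lower), 8058 with spike-ins (434 higher, 7624 lower), 5045 with normexp (2990 higher) and 223 with no filter (156 higher, 67 lower), where 9 of the genes in the lists passed, against 57. Lower genes numbered 2067 with normexp and quantile normalization and 2094 with limma-trend. With the replicate block, 1916 changed (1014 higher, 902 lower), and Sst passed (adjusted p = 0.0412 in limma, and 0.0435 relative to insulin). Without 1 array there were 533 to 2835 (315 to 1523 higher, 206 to 1312 lower), and 19 to 47 genes of the lists. Leaving out an array took 13 of the 18 named list genes that passed below the threshold in at least 1 of the 4 fits. The cause of these shifts was not tested.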
